A study of Mus musculus with 3 samples.

Results

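The protein-coding Hox genes of the 4 mouse clusters were read in the transcriptomes of wounded tail-tip fibroblasts. The members are the rows of the deposited table whose gene name is Hox followed by a cluster letter from a to d and a number. This rule uses no measured value, leaves out antisense genes, and finds 39 of the 43472 rows of the table, with 11 genes in HoxA, 10 in HoxB, 9 in HoxC and 9 in HoxD. Transcripts were measured by RNA-seq in 3 libraries, replicates 1, 2 and 3 of a single condition. Primary fibroblasts were taken from the last 0.5 cm of the tail of C57BL/6 mice, grown in culture and wounded by a scratch. All 3 cultures received the soluble micrograft (MG), a cell-free extract of disrupted mouse skin diluted 1:10 in medium, together with PD0325901, which inhibits the kinase MEK and so blocks signalling to ERK, for 5 h. The design text of the series calls the 3 libraries biological replicates. The age and sex of the mice, and whether each library came from another animal, are not given in the sources used here. Cells without MG or without the inhibitor were not analysed here, so every value describes this 1 condition and no effect of a treatment was computed.

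Hox genes encode transcription factors with a DNA-binding homeodomain, and they give cells along the body axis their regional identity. Genes in corresponding positions of the 4 clusters form paralogue groups, numbered from 1 at the end used towards the head to 13 at the end used towards the tail. In the embryo the low-numbered groups are switched on early and far forward, and the high-numbered groups late and far back or far out in the limbs, an order known as collinearity. Adult fibroblasts keep much of the Hox pattern of the site from which they came, also in culture, and the tail tip is the hindmost site of the body.

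The libraries held 22540518, 27037783 and 17244505 reads on genes in replicates 1, 2 and 3, recovered from the normalized counts as described under the processing. Normalized counts are reads divided by a size factor of the library, and a gene is called detected here where it had at least 10 of them in every library. By this minimum 12204 of the 43472 rows of the table were detected. A count of 0 allows up to 3 reads, which corresponds to 2.61, 2.11 and 3.56 normalized counts in the 3 libraries, and such limits cover counting error only. Replicate 2 stood apart from the others: its level differed by over 2-fold from each of them, in 1 direction, in 10.1% of 13154 genes with a mean of at least 10 normalized counts, against 4.26% for replicate 1 and 3.58% for replicate 3. Of the cell type markers examined, all 9 of fibroblasts were detected, with a summed level of 347294, 386944 and 512836 normalized counts. Thy1, Lum and Dcn of that list had a replicate over 2-fold from both others. All 5 tendon markers were detected too, summing to 14980, 1492 and 14814, with 4 of the 5 over 2-fold lower in replicate 2 than in both others. Cartilage and bone markers, of which 3 of 6 were detected and Sp7 had no read, summed to 12309, 822 and 1399, of which Col2a1 alone gave 11538, 229 and 833. The sums were 2641, 8494 and 5664 for 5 skeletal muscle markers, of which Myod1 had no read. They were 142, 76.8 and 670 for 6 leukocyte markers, 90.3, 244 and 55.7 for 5 endothelial markers, 148, 59.9 and 151 for 4 neural and Schwann cell markers, and 83.4, 39.5 and 34.4 for 6 keratinocyte markers. Single genes held most of the highest sums, Lyz2 with 123, 62.7 and 601 in the leukocyte list and Tek with 6.95, 185 and 2.37 in the endothelial list. Laptm5 of the leukocyte list was also highest in replicate 3, with 1.74, 4.93 and 36.7 normalized counts. So were Tyrobp with 0, 2.11 and 15.4 and Cd52 with 0.868, 0.705 and 9.48. Cd74 was highest in replicate 1, with 14.8, 5.64 and 5.93. Ptprc, which defines leukocytes, had 1.74, 0.705 and 1.19, and Cdh5, which defines endothelium, had 0, 0 and 1.19. Krt1 and Krt15, keratins that define keratinocytes, had no read. Other members of these lists were detected, Krt10 with 80.8, 39.5 and 32.0 and Egfl7 of the endothelial list with 69.5, 53.6 and 49.8. In the muscle list Acta1 had 2429, 7286 and 5586 and Des had 212, 1208 and 77.0. The part of these cell types in the Hox values was not tested. In bulk libraries fewer cells that use a gene and less RNA per cell cannot be told apart.

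Most Hox transcripts in these libraries came from the HoxB cluster, and Hoxb9 and Hoxb13 at its tail-ward end had the highest levels. Reads were found for 31 of the 39 genes, and 24 were detected in every library, which is 77.4% of the 31, against 60.1% of the 20322 genes with reads. The 39 genes together summed to 6221, 5695 and 6021 normalized counts in replicates 1, 2 and 3, or 5979 ± 266 on average (SD, n = 3). Those sums came from 7164, 8082 and 5080 reads. HoxB held 65.1 ± 3.96% of the summed Hox level per kb of exonic length (SD, n = 3), HoxC 19.8 ± 2.67%, HoxA 14.9 ± 1.43% and HoxD 0.119 ± 0.0835%. Groups 9 to 13 held 73.0 ± 2.68% of it per kb, groups 4 to 8 held 21.8 ± 2.66% and groups 1 to 3 held 5.23 ± 0.776%. Without division by length the share of groups 9 to 13 was 73.1 ± 2.30%, and it was 72.0% when replicate 2 was left out. It fell to 37.2% when group 9 was not counted, because group 9 alone held 35.8 ± 2.47% of the summed normalized counts.

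**Figure D1:**
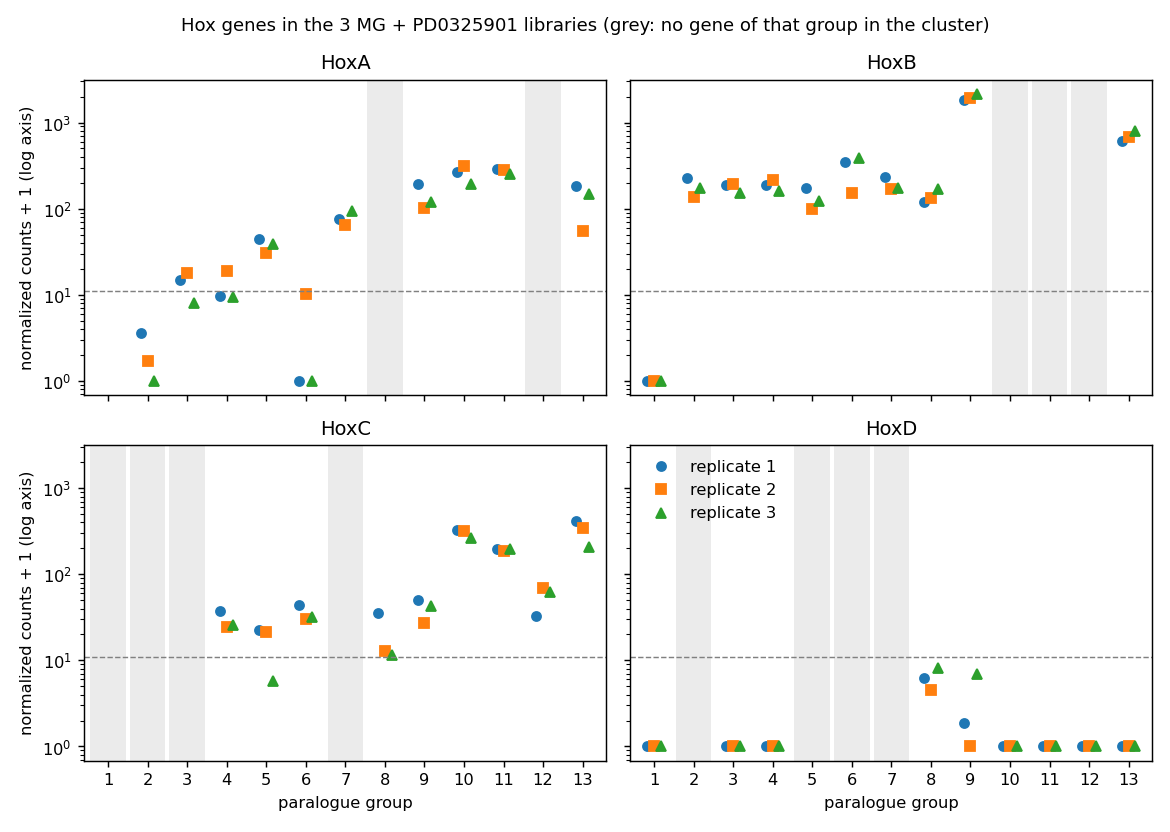
Normalized counts plus 1 (log axis) of the Hox genes reported here against their paralogue group, in a panel for each cluster, with a point for each of the 3 MG + PD0325901 libraries; the dashed line is the detection minimum of 10 and grey bands mark groups with no gene in that cluster. The points are highest in groups 10 and 11 in HoxA, in groups 10, 11 and 13 in HoxC and in groups 9 and 13 in HoxB, and 7 HoxD genes sit at 0 in all libraries.

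The plot of genes by cluster and paralogue group shows that the clusters differed in shape as well as in level. HoxA was low at groups 2 to 6 and highest at groups 10 and 11. HoxB lay between 41.6 and 150 normalized counts per kb from group 2 to group 8, with its peak at group 9. HoxC was low up to group 9 and higher in groups 10, 11 and 13. HoxD was almost without reads. The median level per kb of the 24 detected Hox genes was 52.2 normalized counts, against 107 over 11620 detected genes with a known length.

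**Figure D2:**
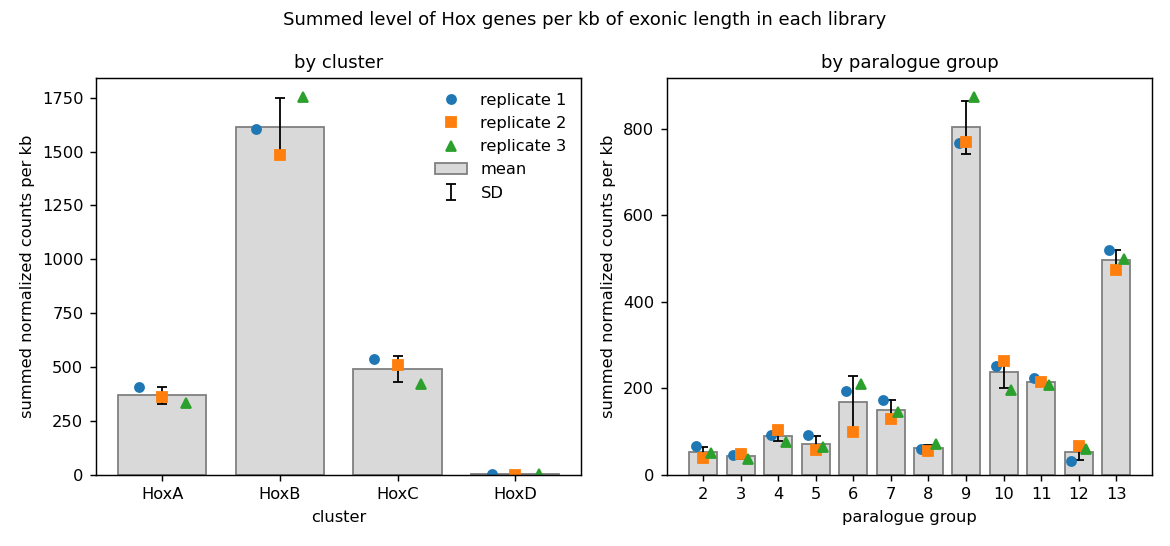
Summed normalized counts per kb of exonic length for each Hox cluster (left) and each paralogue group from 2 on (right); bars are means of the 3 libraries, whiskers are SD and points are single libraries. HoxB is the highest cluster in every library, and groups 9 and 13 are the highest of these paralogue groups in every library.

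The HoxB cluster spans 174 kb of chromosome 11 (GRCm38, chr11:96194316-96368256, plus strand), from Hoxb13 to Hoxb1. Of its 10 genes, 9 were detected and Hoxb1 had no read in any library. Hoxb9, which patterns the thoracic skeleton with its group 9 paralogues, was read at 1835, 1906 and 2142 normalized counts in the 3 libraries. Their average was 1961 ± 161 (SD, n = 3), and the level of Hoxb9 per kb was above that of 93.2% of genes with reads. Hoxb13, the hindmost gene of the cluster and a regulator of tail vertebra number, had 611, 683 and 787 normalized counts, with a mean of 694 ± 88.3. Both genes were lowest in replicate 1 and highest in replicate 3. Per kb, Hoxb9 exceeded Hoxb13 by 2.57-, 2.39- and 2.33-fold in the 3 libraries. Between these 2 genes lie 74.0 kb without another Hox gene, which contain the long non-coding gene Gm53.

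The genes from Hoxb2 to Hoxb8 were all detected and most of them were within 2-fold among libraries. Hoxb2 and Hoxb3, hindbrain patterning genes, had 226, 137 and 172, and 188, 193 and 151 normalized counts. Hoxb4, a hindbrain and neck gene also known for its role in blood stem cells, had 187, 211 and 158. Hoxb5, which takes part in shoulder position, had 171, 97.2 and 121. Each of these 4 genes kept within 2-fold among the libraries.

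Hoxb6 stood out among the genes from Hoxb2 to Hoxb8 for its spread. It had 346, 151 and 386 normalized counts, so that replicate 2 was 2.30-fold under replicate 1 and 2.56-fold under replicate 3. Both differences were called by the two-sided exact binomial test on reads, with Benjamini-Hochberg adjustment over all genes (adjusted p = 3.18e-23 and 1.66e-26), while replicates 1 and 3 were not told apart (adjusted p = 0.229). That test compares single libraries and covers counting error only. Hoxb7 next to it had 229, 166 and 174 normalized counts, and Hoxb8 had 118, 131 and 168. Hoxb5, Hoxb6 and Hoxb7 were each lowest in replicate 2, and their sum was 747, 414 and 682.

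The HoxA cluster spans 105 kb of chromosome 6 (chr6:52155590-52260880, minus strand) and 7 of its 11 genes were detected. Hoxa10 and Hoxa11, which pattern the lumbar and sacral spine, the limbs and the reproductive tract, had the highest levels. Hoxa10 had 264, 309 and 192 normalized counts and Hoxa11 had 291, 279 and 255. Hoxa11 hardly varied, with a CV of 6.68%, and none of its pairs of libraries was called. Of its exonic length, 35.0% is shared with Hoxa11os on the opposite strand. Sharing with opposite-strand genes was 52.9% for Hoxb3 and 27.3% for Hoxb2, both with Hoxb3os, and 25.4% for Hoxa3 and 20.4% for Hoxa7. The library kit keeps the strand, but whether the counting used it is not given in the sources used here, so reads of such partners may not have been told apart.

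Hoxa13, which patterns the hands, feet and the urogenital end of the body, was the other gene in which replicate 2 was far below both others. It had 181, 54.3 and 148 normalized counts, from 209, 77 and 125 reads. Replicate 2 was 3.35-fold under replicate 1 and 2.73-fold under replicate 3 (exact binomial test, adjusted p = 2.08e-21 and 6.91e-12), and replicates 1 and 3 were not told apart (adjusted p = 0.127). Hoxa9, known for its role in blood progenitors, had 195, 101 and 120. Replicate 1 was 1.92-fold above replicate 2 for this gene.

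Toward the head-ward end of HoxA the levels were lower. Hoxa7 had 73.8, 63.4 and 93.6 normalized counts, and Hoxa5, which acts in lung and neck development, had 43.4, 29.6 and 37.9. Hoxa3 had 13.9, 16.9 and 7.11 and Hoxa4 had 8.68, 17.6 and 8.30, so both were under the detection minimum in at least 1 library. Hoxa2, which sets the identity of the second branchial arch, had 3, 1 and 0 reads. Hoxa6 had 13 reads in replicate 2, equal to 9.16 normalized counts, and 0 in both others.

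The HoxC cluster spans 116 kb of chromosome 15 (chr15:102921103-103036852, plus strand), and 8 of its 9 genes were detected. Hoxc13, known for its role in hair and nail formation, had 416, 347 and 204 normalized counts, and all 3 of its pairs of libraries were called. Hoxc10, a gene of the lumbar region and hind limb, had 326, 321 and 263. Hoxc11 was the steadiest of all detected Hox genes, with 194, 187 and 194 normalized counts and a CV of 2.21%. Hoxc12 had 32.1, 69.1 and 61.6, with replicate 1 below both others.

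Hoxc4 to Hoxc9, genes of the neck and thorax, were all under 50 normalized counts in each library. Hoxc4 had 36.5, 23.3 and 24.9, Hoxc6 had 43.4, 29.6 and 30.8, and Hoxc9 had 48.6, 26.1 and 41.5. All 3 were highest in replicate 1 and lowest in replicate 2. Hoxc8 had 34.7, 12.0 and 10.7, from 40, 17 and 9 reads, and was the only Hox gene of such a mean with replicate 1 over 2-fold above both others. Hoxc5 had 21.7, 20.4 and 4.74, the last from 4 reads, and was the only one with replicate 3 more than 2-fold below. Hoxc5 and Hoxc10 share exonic sequence on the same strand, 5.37% of the length of Hoxc5 and 8.70% of that of Hoxc10, and reads there cannot be given to 1 of the genes by position.

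HoxD, on chromosome 2 (chr2:74668310-74765142, plus strand), was the exception. Of its 9 genes, 7 had no read in any of the 3 libraries: Hoxd1, Hoxd3, Hoxd4, Hoxd10, Hoxd11, Hoxd12 and Hoxd13. The last 4 are the genes that HoxD uses in digits, genitalia and the hind end of the spine. Hoxd8 had 6, 5 and 6 reads, or 5.21, 3.52 and 7.11 normalized counts, and Hoxd9 had 1, 0 and 5 reads. The whole cluster thus summed to 6.08, 3.52 and 13.04 normalized counts. Their average was 7.55 ± 4.92 (SD, n = 3) and became 4.80 without replicate 3. HoxB summed to 3911, 3676 and 4259 normalized counts in the same libraries.

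The paralogues of the unread HoxD genes were present. Set against the level that 3 reads would give, and per kb, Hoxb13 was at least 264-, 364- and 249-fold above Hoxd13 in replicates 1, 2 and 3. Hoxc13 was at least 161-, 166- and 57.8-fold above it and Hoxa13 at least 70.0-, 25.8- and 41.9-fold. Hoxa11 was at least 206-, 243- and 132-fold above Hoxd11. Hoxc12, the only paralogue of Hoxd12, was at least 30.3-, 80.3- and 42.6-fold above it. The smallest of these limits among the other pairs was that of Hoxc4 over Hoxd4, at least 8.04-fold in replicate 3. For Hoxd3 and Hoxd4, 62.4% and 52.3% of the exonic length is shared with one another or with the readthrough gene Gm28230 on the same strand, which also had no read, so a 0 in these rows says less than in the others.

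Reads of 50 bases were aligned with up to 2 mismatches, so a group 13 transcript could be counted for another only where their sequences are nearly alike. None of the 50-base stretches of the Hoxa13, Hoxb13, Hoxc13 and Hoxd13 transcripts was within 2 mismatches of any other Hox gene. Below are the 50 coding bases of Hoxd13 that come closest to Hoxa13, at chr2:74669987-74670036 (GRCm38, GENCODE M21, plus strand), with the stretch of each paralogue nearest to it, at chr6:52259001-52259050 (minus strand), chr11:96196077-96196126 and chr15:102927267-102927316 (plus strand). They are shown to let the difference between an unread gene and its read paralogues be seen over the length of a read. Capitals mark the bases that differ from Hoxd13, of which there are 10 in Hoxa13, 13 in Hoxb13 and 13 in Hoxc13.
Hoxd13: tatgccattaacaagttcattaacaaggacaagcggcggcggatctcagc
Hoxa13: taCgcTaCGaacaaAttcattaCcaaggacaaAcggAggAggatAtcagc
Hoxb13: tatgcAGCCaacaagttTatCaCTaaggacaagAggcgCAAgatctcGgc
Hoxc13: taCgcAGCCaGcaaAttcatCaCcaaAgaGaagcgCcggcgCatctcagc
All 4 stretches lie in single exons. Over all pairs of the 4 coding sequences, the closest 50 bases were those of Hoxa13 and Hoxc13, with 6 mismatches. The closest stretches of Hoxd13 were 9 mismatches from Hoxc13, 10 from Hoxa13 and 12 from Hoxb13, each at another position. Among the other Hox genes, the largest shares of 50-base stretches within 2 mismatches of another Hox gene were in Hoxd4 at 11.4%, Hoxd3 at 9.95% and Hoxc10 at 6.56%. These genes share exonic sequence with another Hox gene on the same strand, Hoxd3 with Hoxd4 and Hoxc10 with Hoxc5. Stretches in shared exons are counted in these shares, and they were not separated from similar sequence elsewhere.

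Promoter sequence was compared because the unread HoxD genes have read paralogues. CpG dinucleotides were counted in RefSeq promoter windows of 300 bases (GRCm38.p6), 250 before and 50 after the start, which cover 22 of the 39 Hox genes. Where a gene had more than 1 window, the one nearest to the GENCODE start was used, and for Hoxa7, Hoxa9, Hoxc4 and Hoxd4 it lay 3281, 3719, 15461 and 10049 bases from it. The windows of 9 HoxD genes held a median of 20 CpG, from 4 to 37. Those of 9 detected Hox genes held a median of 13, from 4 to 45, and all 32851 windows in the table a median of 7. Hoxa13, read in every library, had 45 CpG, more than 98.1% of all windows, and Hoxd13, without a read, had 37, more than 94.4%. The 250 bases before the start are shown for these genes and for the group 10 paralogues, with each CG in capitals, 35 and 31 of them in the first pair and 7 and 20 in the second. They lie at chr6:52260881-52261130 (minus strand), chr2:74667975-74668224 (plus strand), chr6:52240855-52241104 (minus strand) and chr2:74691641-74691890 (plus strand).
Hoxa13: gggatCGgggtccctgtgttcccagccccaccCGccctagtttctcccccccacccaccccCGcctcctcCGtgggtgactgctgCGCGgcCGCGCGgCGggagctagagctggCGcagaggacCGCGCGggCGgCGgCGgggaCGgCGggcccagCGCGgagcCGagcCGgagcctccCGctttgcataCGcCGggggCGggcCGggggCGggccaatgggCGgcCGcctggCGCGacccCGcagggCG
Hoxd13: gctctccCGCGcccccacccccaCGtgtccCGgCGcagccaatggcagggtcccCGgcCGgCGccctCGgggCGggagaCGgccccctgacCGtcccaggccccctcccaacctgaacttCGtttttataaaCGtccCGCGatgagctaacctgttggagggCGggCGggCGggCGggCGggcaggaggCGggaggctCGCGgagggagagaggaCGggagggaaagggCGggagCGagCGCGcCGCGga
Hoxa10: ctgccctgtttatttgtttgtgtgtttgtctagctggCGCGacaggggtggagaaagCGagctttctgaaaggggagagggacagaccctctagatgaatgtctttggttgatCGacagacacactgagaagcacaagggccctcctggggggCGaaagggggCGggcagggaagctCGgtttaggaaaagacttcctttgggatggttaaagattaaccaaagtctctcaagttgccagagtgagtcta
Hoxd10: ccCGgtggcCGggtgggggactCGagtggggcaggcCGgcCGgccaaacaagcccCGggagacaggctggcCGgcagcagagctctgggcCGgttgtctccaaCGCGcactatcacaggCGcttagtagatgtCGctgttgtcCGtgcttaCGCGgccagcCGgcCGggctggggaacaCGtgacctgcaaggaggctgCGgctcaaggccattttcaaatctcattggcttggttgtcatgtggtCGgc
In the windows used, the read gene had more CpG in the group 13 pair and fewer in the group 10 pair. The group 10 difference depends on the start chosen. Over 300 bases, a second Hoxa10 window, 5915 bases from the GENCODE start, held 21 CpG, against 12 in the one used and 22 for Hoxd10. The letters TATAAA, on either strand, were in the windows used of 3 of the 22 genes, Hoxb8, Hoxd4 and Hoxd13, and in 13.6% of all windows. The second Hoxa10 window held these letters too.

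**Figure D3:**
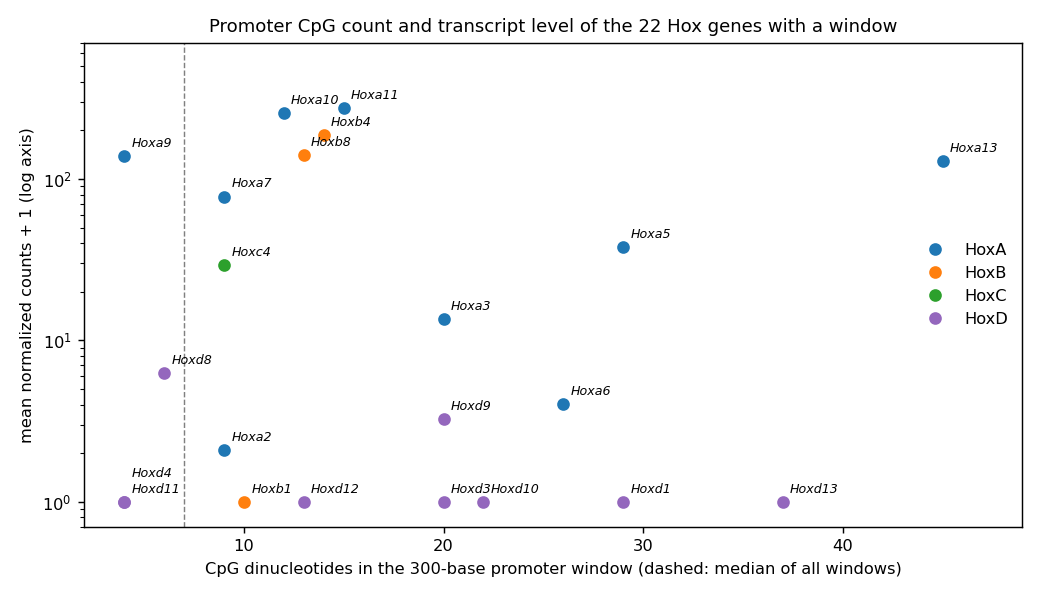
Mean normalized counts plus 1 over the 3 libraries (log axis) against the number of CpG dinucleotides in the 300-base promoter window, a point for each of the 22 Hox genes with a window, coloured by cluster; the dashed line is the median of 7 over all windows. Genes without reads span 4 to 37 CpG and detected genes 4 to 45.

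Levels of different Hox genes were ordered per kb of exonic length. Hoxb9 was first with 762 ± 62.4 per kb (SD, n = 3) and Hoxb13 followed with 315 ± 40.0. Hoxc10, Hoxb6, Hoxc13, Hoxb7, Hoxa11 and Hoxc11 came next, from 159 down to 94.8 per kb. The lowest detected gene was Hoxc8 with 6.75 ± 4.78 per kb. In only 3 of the 23 neighbouring pairs of this order did the library ranges not overlap, Hoxb9 above Hoxb13, Hoxb13 above Hoxc10 and Hoxa11 above Hoxc11. The ranges of the other 20 neighbours overlapped, which does not compare both genes within each library. Some of them, such as Hoxc6 above Hoxc4, kept the same order in every library. Others, such as Hoxb6 and Hoxc13, did not.

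**Figure D4:**
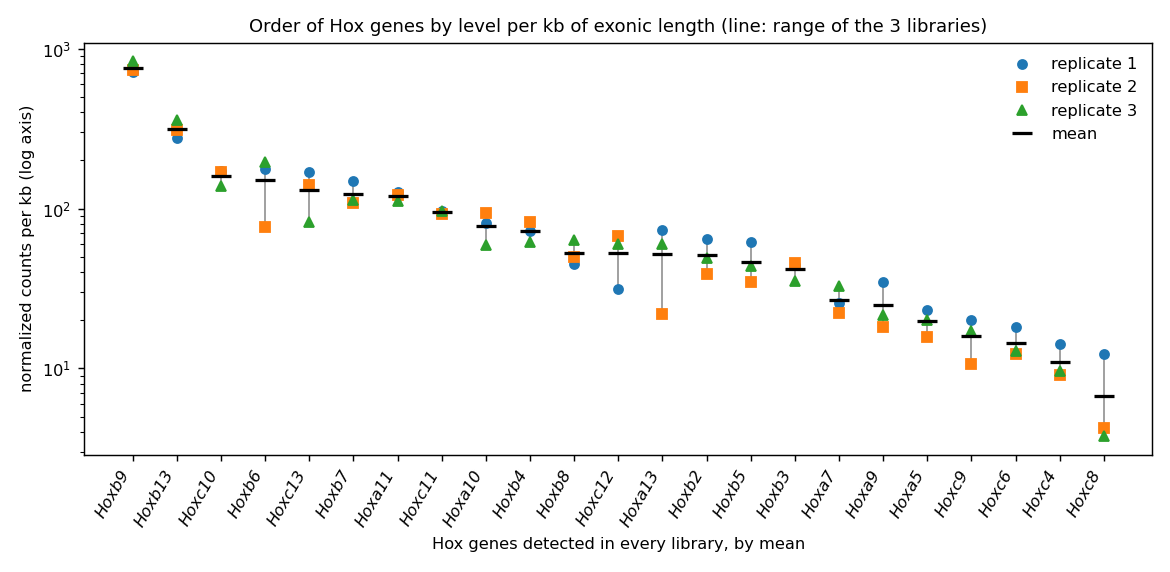
Normalized counts per kb of exonic length (log axis) of the Hox genes reported here that were detected in every library, ordered by mean; points are libraries, black bars means and grey lines the range of the 3 libraries. Hoxb9 and Hoxb13 stand above the rest, and the ranges of most other neighbours overlap.

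The detected copies of paralogue groups 9 and 13 differed in level. In group 9, Hoxb9 exceeded Hoxa9 by 20.4-, 40.7- and 38.8-fold per kb and Hoxc9 by 35.6-, 69.0- and 48.7-fold in replicates 1, 2 and 3. In group 13, Hoxb13 exceeded Hoxc13 by 1.64-, 2.19- and 4.31-fold and Hoxa13 by 3.77-, 14.1- and 5.95-fold. Every library had the same order, Hoxb13 above Hoxc13 above Hoxa13. The sum of group 13 was nevertheless steady as a share, at 19.1 ± 0.266% of the Hox total, with 1209, 1085 and 1139 normalized counts. In group 10, Hoxc10 exceeded Hoxa10 per kb in every library, and in group 11 the copies were close, with Hoxa11 at 127, 122 and 111 per kb and Hoxc11 at 95.8, 92.4 and 96.2.

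The spread of Hox genes among the 3 libraries was set beside that of all genes. Between replicates, log2(normalized count + 1) had an SD with a median of 0.32 over the 24 detected Hox genes and 0.30 over all 12204 detected ones. A range of more than 2-fold was found in 5 of the 24, or 20.8%, against 22.0% of all detected genes. Among the 27 Hox genes with a mean of at least 10 normalized counts, 4 had a replicate more than 2-fold from both others, 14.8% against 15.8% of all genes with such a mean. Replicate 1 was apart in 1 of the 27, Hoxc8. Replicate 2 was apart in 2, Hoxa13 and Hoxb6, or 7.41%, against its 10.1% over all genes. Replicate 3 was apart in 1, Hoxc5.

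**Figure D5:**
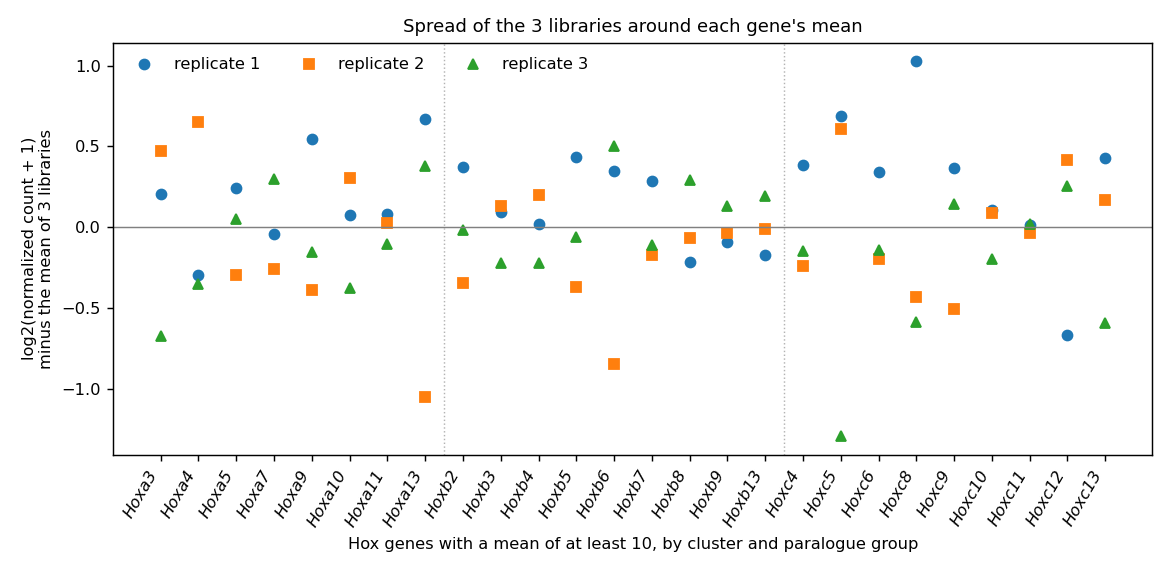
Log2(normalized count + 1) of each library minus the mean of the 3 libraries, for the Hox genes reported here with a mean of at least 10 normalized counts, in cluster and paralogue group order, with dotted lines between clusters. Replicate 2 lies far below the others for Hoxa13 and Hoxb6, replicate 1 far above for Hoxc8 and replicate 3 far below for Hoxc5.

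Replicate 2 more often held the lowest value. Of the 24 detected Hox genes, 12 were lowest in replicate 2, 8 in replicate 3 and 4 in replicate 1, while over all detected genes the shares were 37.3%, 28.3% and 34.5%. Replicate 1 held the highest value in 13 of the 24, and in 31.5% of all detected genes. The median log2 ratio of a library to the mean of the others was 0.26 in replicate 1, -0.18 in replicate 2 and -0.13 in replicate 3 over the detected Hox genes, and -0.03, 0.03 and 0.00 over all detected genes. The tendon markers Scx, Mkx, Fmod and Comp were also lowest in replicate 2, while Tnmd had 124, 127 and 107, and their part in this was not tested.

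The exact binomial test between single libraries called a smaller share of the Hox genes than of all genes when no fold limit was set. Detected Hox genes had a median mean level of 158 normalized counts and all detected genes 511, and the part of this in the shares was not tested. Between replicates 1 and 2, 12 of 29 Hox genes were called, 41.4% against 69.1% of all genes tested. The counts were 13 of 28 between replicates 1 and 3, where 52.0% of all genes were called, and 14 of 29 between replicates 2 and 3, where 62.6% were. With a difference of more than 2-fold as well, 5, 3 and 4 Hox genes were called in these pairs. These are 17.2%, 10.7% and 13.8% of the Hox genes tested, against 20.3%, 9.27% and 16.4% of all genes tested, so with that limit the shares were near the background. Of the 28 Hox genes tested in all pairs, Hoxb13 and Hoxc13 were called in all 3, or 7.14%, against 30.0% of 13717 genes. In Hoxb13 replicate 3 was highest and replicate 1 lowest, and in Hoxc13 the order was the opposite. Of the 28, 8 were called in none, or 28.6% against 16.4% of all such genes: Hoxa3, Hoxa4, Hoxa5, Hoxa11, Hoxc4, Hoxc6, Hoxc11 and Hoxd8.

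Of 47 non-coding genes of the clusters in the table, 30 had no read, or 63.8% against 53.3% of all rows, and 6 were detected. The background for the detected genes of this list and of those that follow is the 12204 of 43472 rows detected. Gm53, a long intergenic RNA at chr11:96251105-96264868 between Hoxb13 and Hoxb9, had the most, with 353, 756 and 386 normalized counts. Replicate 2 was highest there, and its pairs with both others were called (adjusted p = 6.48e-42 and 4.36e-28, exact binomial test). Hoxa11os, the antisense partner of Hoxa11, had 135, 78.2 and 80.6, and Hoxb3os, which runs opposite to Hoxb3, had 51.2, 33.1 and 40.3. Hotairm1, an antisense gene at the head-ward end of HoxA, had 75.5, 15.5 and 49.8, with replicate 2 more than 2-fold below both others. Hotair, transcribed from HoxC and known for acting on HoxD chromatin in human fibroblasts, had 20.0, 27.5 and 16.6, and its pairs of libraries were not called. Gm15050 had 70.3, 26.8 and 54.5. Hoxb5os had 21.7, 7.05 and 86.5, with replicate 2 below and replicate 3 above both others, and Gm27477 had 27.8, 6.34 and 4.74. Haglr and Hoxd3os1, non-coding genes of HoxD, had no read. Neither had Mir10a and Mir10b, but short microRNAs are not captured by this kind of library.

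Genes that flank the clusters were mostly detected. None of the 10 with a mean of at least 10 normalized counts had a replicate apart, against 15.8% of all such genes. Of 14 in the table, 10 were detected, with Cbx5 highest at 1435, 1819 and 1361 normalized counts, followed by Hibadh at 1081, 1194 and 1009. Mtx2, Lnp and Atf2, which lie near HoxD, had means of 701, 461 and 693. Evx1 and Evx2, homeobox genes at the tail-ward ends of HoxA and HoxD, had no read. All 6 genes of the Cdx and ParaHox list, relatives of the Hox genes that include Cdx1, Cdx2 and Cdx4, regulators of Hox genes in the embryo, had no read.

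Proteins of the TALE class bind DNA together with Hox proteins, and 8 of 9 of their genes were detected. Meis3 had 643, 695 and 678 normalized counts and Pbx2 had 603, 601 and 551. Replicate 2 was more than 2-fold above both others in Meis2 with 125, 258 and 91.3, and in Pknox2 with 0, 178 and 8.30. In all, 3 of the 9 genes had a replicate apart, or 33.3% against 15.8% of all genes. Replicate 2 had the lowest Hoxa13 and Hoxb6 values and the highest Meis2 and Pknox2 values. These genes were picked because a replicate was apart in them, and a link between them was not tested.

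Polycomb proteins keep Hox genes silent and Trithorax proteins keep them active. Against 12204 of 43472 rows of the table, all 20 Polycomb genes and all 14 genes of the Trithorax and H3K27 demethylase list were detected. Rbbp7 with 2704, 5287 and 3257 normalized counts and Phc2 with 3848, 2172 and 3855 had the highest means among the first. Bmi1 with 425, 959 and 350 and Phf19 with 39.1, 97.9 and 47.4 had replicate 2 more than 2-fold above both others, 2 of the 20 genes against 15.8% of all genes with any replicate apart. Kmt2d had 1292, 1227 and 1188 and Wdr5 had 1023, 1122 and 1156. None of the 14 genes of the Trithorax and H3K27 demethylase list had a replicate apart, against the same 15.8%.

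Retinoic acid sets Hox expression in the embryo, and 12 of 18 genes of its receptors and metabolism were detected. Rarg, a receptor, had 1763, 1690 and 1835 normalized counts. Aldh1a3, an enzyme that makes retinoic acid, had 258, 3102 and 817, and Aldh1a2, with the same function, had 3.47, 89.5 and 2.37. Cyp26b1, which breaks it down, had 357, 122 and 167. Replicate 2 was more than 2-fold above both others in Aldh1a2 and Aldh1a3 and also in the binding protein gene Crabp1 with 378, 984 and 452. In all, 5 of the 13 genes with a mean of at least 10 had a replicate apart, or 38.5% against 15.8% of all genes. Cyp26a1, Cyp26c1 and Rxrg had no read.

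Other factors that mark body position were examined in 2 lists. Of 31 limb and trunk factors, 19 were detected, and of 17 head mesenchyme factors, 5 were. Among those with a mean of at least 10, 10 of 22 limb and trunk factors and 9 of 11 head factors had a replicate apart, or 45.5% and 81.8% against 15.8% of all genes. Prrx1, a factor of limb and skin mesenchyme, had 1975, 10867 and 2067 normalized counts. Prrx2 had 2416, 1919 and 2448 and Tbx15 had 1544, 1292 and 1416, with no replicate apart. Tbx4, a hind limb gene, had 25.2, 185 and 15.4, Tbx5, a forelimb gene, had 2.61, 41.6 and 0, and Pax3, a somite gene, had 2.61, 163 and 2.37. Replicate 2 was the highest in these 3 and in Nr2f1 with 1.74, 95.1 and 0. It was the lowest in Pax9 with 181, 54.3 and 162 and in Msx2 with 745, 218 and 562. Replicate 1 was above both others in En1 with 342, 158 and 71.1 and in Shox2 with 195, 59.2 and 56.9. Pax1, a gene of the sclerotome, was highest in replicate 3 with 106, 72.6 and 321. Pitx1, Lmx1b and T had no read.

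The head genes of the last list are used in regions ahead of Hox expression. Otx1, Otx2 and Alx1 had no read. Foxd1 had 237, 7.05 and 115 normalized counts. Lhx6 had 0.868, 57.8 and 3.56 and was highest in replicate 2, as was Dlx4 with 5.21, 85.3 and 16.6. Dlx2 with 102, 38.8 and 43.9 and Dlx5 with 26.9, 2.11 and 10.7 were highest in replicate 1. Dlx1 with 9.55, 9.86 and 29.6 and Alx4 with 16.5, 13.4 and 37.9 were highest in replicate 3, and Barx1 with 13.03, 14.1 and 3.56 was lowest there.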

How the data were processed

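Primary fibroblasts treated with MG and PD0325901 for 5 h were measured by RNA-seq in 3 libraries of 1 condition. From stranded mRNA libraries, the authors aligned single-end reads of 50 bases to mm10 with TopHat2 2.0.13 allowing 2 mismatches, counted genes with HTSeq 0.5.3p3 and normalized with DESeq, its version not given; versions are from the submitters' processing notes. The deposited signal is normalized counts, read counts divided by a size factor per library (1.15, 1.42 and 0.844). Dividing by the smallest value above 0 gave whole numbers (tolerance 0.01) for 100% of values, taken as reads. A further 3 columns of per-sample values matched no sample and were not used.

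Members, lists and tests were chosen with earlier results of these data known. All Hox genes with a mean of at least 10 normalized counts were named with values, and from each list the genes with a replicate apart and the 2 highest. A few genes under this rule are counted but not reported here. Log2 values used a pseudocount of 1. A replicate was apart where it exceeded, or fell short of, each of the others by over 2-fold, among genes averaging 10 or more. A two-sided exact binomial test on recovered reads set single libraries against each other, for genes with 10 or more reads in both together (Benjamini-Hochberg over all such genes, 0.05). Whether replicates were separate animals is not given, so the spread may be partly technical. Positions and lengths came from GENCODE M21 (GRCm38), where all 39 symbols matched, and promoters from RefSeq. The alternatives were other minimums, limits and pseudocounts, equal totals, TMM factors from edgeR 4.0.16 in R 4.3.3, and each replicate left out. Python 3.11.15, numpy 2.4.6, scipy 1.17.1 and pandas 2.3.3 were used. The tests were tried on data simulated with counting error only, which did not cover any further spread between replicates.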

Additional observations from a re-analysis of the deposited data

How the results depend on the processing

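Of the alternatives for the Hox counts, sums and shares, 60 kept the value within the set limits and 13 did not. For counts and the median SD the limit was a 1.5-fold change, and for sums and shares it was 1 SD of the 3 libraries. Leaving out 1 of 3 replicates cannot move a mean that far, so those alternatives among the 60 could only keep the value. Counts of genes with a replicate apart moved with the limits. For replicate 1 there were 2 without a minimum on the mean, 0 at a mean of at least 100, 3 at a 1.5-fold limit and 0 at a 3-fold limit. For replicate 2 there were 4 at 1.5-fold and 0 at 3-fold, and for replicate 3 there were 2 without a minimum, 0 at a mean of at least 100 and 3 at 1.5-fold. Hoxa13 and Hoxb6 remained below in replicate 2 under every alternative but the 3-fold limit. Asking for more than 2-fold as well left 5, 3 and 4 Hox genes called in pairs 1 and 2, 1 and 3, and 2 and 3. The share of groups 10 to 13 was 37.2%. A minimum of 50 normalized counts gave 18 detected Hox genes, against 24. Equal totals gave 10 Hox genes called between replicates 2 and 3, against 14. Both changes were within the 1.5-fold limit. Leaving out each replicate gave 24 to 26 detected genes. None of 27 gene means moved by over 1 SD with equal totals or TMM factors, which shifted all genes of a library by -0.055 to 0.047 on the log2 scale. Those factors were set to the geometric mean of the size factors, so means and cluster sums over the libraries could hardly move. No paired analysis was possible because there was 1 condition. Genes under 10 reads were beyond what this depth can compare.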
